A study of Mus musculus with 9 samples.

Results

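The comparison described here set mature mouse eggs with bright green fluorescence, the GFP High group, against eggs with red fluorescence, the RFP group. The members were the 3 GFP High and 3 RFP libraries of poly-A RNA, chosen by their group labels, out of 9 libraries in the series. The other 3 libraries came from eggs of intermediate green signal, the GFP Low group, and entered only as values set beside the others. All eggs came from females 4 weeks old, of mixed genetic background, carrying 1 Sycp3CreERT2 allele and 1 Rosa26nT-nG allele, so both groups shared the genotype and differed in the fluorescence by which they were picked by hand. Cells with the Rosa26 nT-nG reporter have red nuclei from tdTomato, and switch to green nuclei once Cre has cut out the tdTomato cassette. CreERT2, a Cre that tamoxifen activates, was driven by Sycp3, a gene of the meiotic chromosome axis. The time of tamoxifen treatment is not given in the sources used here. Females received 5 IU of PMSG and, 48 h later, 5 IU of hCG, and metaphase II (MII) eggs were taken 13 h after hCG and stripped of cumulus cells with hyaluronidase. The GFP High libraries were made from pools of 15, 15 and 16 eggs and the RFP libraries from pools of 87, 88 and 100 eggs. The GFP Low pools held 49, 52 and 57 eggs, so that pool size lay between the other groups as the green signal did. Group and pool size therefore cannot be told apart in any result below. Nothing in the labels says that the pools came from separate females, so p-values measure the spread between pools.

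A metaphase II egg is arrested in the second meiotic division and makes almost no new RNA. Its messages were made during oocyte growth and are stored, translated, deadenylated or degraded afterwards. Processed pseudogenes are copies of spliced messages that were reverse transcribed and inserted elsewhere in the genome, and they resemble the messages of their parent genes closely. Genes of small ribosomal, mitochondrial and antioxidant proteins have many such copies in the mouse. Reads from such a copy can match its parent as well.

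Because pseudogenes of this kind made up 7 of the 12 most strongly ranked genes that leaned towards GFP High, the resemblance of a few of them to their parents is shown first. The following stretches of 90 bases, 5′ to 3′, lie in the coding part of the parent's transcript and in the aligned part of the pseudogene's, both from GENCODE release M21 on GRCm38, with capitals marking the bases at which pseudogene and parent differ. Gpx4-ps2 (chr10:45875291-45876086, plus strand) is aligned with Gpx4, Gm10250 (chr15:5120654-5121135, minus strand) with Atp5h, and Gm5854 (chr14:101981991-101982763, minus strand) with Rpl7a.

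Gpx4-ps2: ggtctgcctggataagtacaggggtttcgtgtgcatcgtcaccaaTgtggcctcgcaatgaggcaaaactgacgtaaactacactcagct

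Gpx4: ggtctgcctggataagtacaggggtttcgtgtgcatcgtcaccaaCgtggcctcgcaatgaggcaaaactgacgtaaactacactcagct

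Gm10250: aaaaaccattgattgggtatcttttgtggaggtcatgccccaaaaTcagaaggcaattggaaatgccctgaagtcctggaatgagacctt

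Atp5h: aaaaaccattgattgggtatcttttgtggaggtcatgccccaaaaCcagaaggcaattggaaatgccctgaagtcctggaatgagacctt

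Gm5854: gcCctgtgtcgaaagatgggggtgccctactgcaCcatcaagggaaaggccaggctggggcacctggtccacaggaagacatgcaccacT

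Rpl7a: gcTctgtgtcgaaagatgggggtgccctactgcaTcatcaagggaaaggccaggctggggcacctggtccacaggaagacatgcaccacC

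Over the whole aligned length, Gpx4-ps2 was 99.7% identical to Gpx4, Gm10250 99% to Atp5h and Gm5854 95.7% to Rpl7a. The annotated transcripts of Rpl31-ps8 (chr15:90764279-90764656, minus strand, 378 bases) and Gm2223 (chrX:33505661-33507010, plus strand, 1350 bases) were identical to part of the transcript of Rpl31 and of Eif2s3x along their full length. The first 90 bases of each, which the parent shares letter for letter, follow.

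Rpl31-ps8: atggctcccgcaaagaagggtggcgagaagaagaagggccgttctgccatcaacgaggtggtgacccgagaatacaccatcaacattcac

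Gm2223: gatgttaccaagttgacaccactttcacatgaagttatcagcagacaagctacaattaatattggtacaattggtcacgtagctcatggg

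Counts for such copies and their parents are uncertain, since a read inside a shared stretch fits both, and how the submitters' counting treated those reads is not given in the sources used here.

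The 6 libraries held between 22223923 and 27235986 counted reads. Of 26775 genes in the table, 14829 passed the filter on low counts and were tested with edgeR's quasi-likelihood test. Fewer of the tested genes were detected in GFP High: 540, 1626 and 501 of them had no read in GFP High 1, 2 and 3, against 34, 31 and 63 in RFP 1, 2 and 3. The eggs had the messages of oocytes at high levels. Gdf9, a growth factor secreted by the oocyte, was at 1640, 1870 and 1740 CPM (reads scaled to library size by edgeR) in GFP High and 1510, 1550 and 1520 CPM in RFP. Of 18 cumulus and granulosa cell genes in the table, 12 were tested, 4 of them with a higher fitted value in GFP High, and their median log2 fold change was -0.532. Their summed level was 287 to 406 CPM in GFP High and 296 to 389 CPM in RFP, most of it from Serpine2 and Nr5a2, which both groups held at over 100 CPM. Among the defining cumulus genes, Ptx3 had 159, 0 and 0 reads in GFP High 1, 2 and 3 and 18, 221 and 0 in RFP 1, 2 and 3, and Tnfaip6 had 197, 0 and 3 against 28, 249 and 0. The reads of these 2 genes lay mainly in 1 library of each group. Of the other genes of the list, Cyp11a1 had 0, 0 and 4 reads against 85, 15 and 4, Foxl2 had 0, 0 and 0 against 12, 4 and 6, and Cd44 had 0, 0 and 5 against 22, 5 and 7, with the groups free of overlap for Foxl2. The part of such cells' RNA in the results below was not tested.

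The eGFP reporter and one oogenesin gene passed an adjusted p of 0.05. Of the 14829 genes tested, 2 were called (0.0135%), with eGFP the higher one (0.00674%) and Gm2042 the lower one (0.00674%). eGFP had 986, 1081 and 869 reads in GFP High and 0, 8 and 16 in RFP. It rose with a log2 fold change of 6.96 (SE 0.61) at an adjusted p of 0.00727 in edgeR, and since the eggs were picked by this fluorescence the value checks the labels. tdTomato had 2, 0 and 2 reads in GFP High and 94, 57 and 46 in RFP, so that it was at least 21.1-fold lower in GFP High when its level there is set to the limit of 3 counts per library. tdTomato was not called by edgeR (adjusted p 0.997), at a level of 2.59 CPM ± 0.932 (SD, n = 3) in RFP. Gm2042, a relative of the oogenesins of the PRAME family on chr12:87954080-87960683, was at 98.2, 110 and 90.2 CPM in GFP High and at 223, 267 and 227 CPM in RFP. It fell with a log2 fold change of -1.27 (SE 0.12) at an adjusted p of 0.00727 in edgeR, and the groups did not overlap. The GFP Low libraries held Gm2042 at 100, 103 and 97.1 CPM and eGFP at 14.6, 16.9 and 24 CPM. Sycp3, the synaptonemal complex gene whose promoter drives the recombinase, was at 15.3, 9.43 and 11.5 CPM in GFP High and 20.6, 12.2 and 11.9 CPM in RFP, and its groups overlapped (log2 fold change -0.30, SE 0.31, adjusted p 0.997).

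Apart from those calls, each gene below had an edgeR adjusted p of 0.997 or above, so that its difference did not hold up across all genes tested. In the following, a gene is said to lean where its 3 GFP High values all lay above, or all below, its 3 RFP values. Over all tested genes, 747 leaned higher (5.04%) and 1009 leaned lower (6.8%). At an unadjusted p under 0.05, 606 genes were found (4.09%), 337 of them higher (2.27%) and 269 lower (1.81%). The genes named are those with the smallest p among the leaning genes at 1 CPM or more, 12 in each direction, so their separation is how they were found.

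Of the 12 that leaned higher, 4 were protein-coding. Kif17, a kinesin motor that carries cargo along microtubules (chr4:138250435-138301967), was at 643, 696 and 553 CPM in GFP High and 459, 489 and 485 CPM in RFP, a log2 fold change of 0.40 (SE 0.10). All 3 GFP High libraries were above the highest RFP library, and the GFP Low libraries were at 519, 515 and 590 CPM, 1 of them within the GFP High range. Nudc, a chaperone that works with the dynein motor complex, was the most abundant of the named genes per length, at 1440 FPKM in GFP High and 1050 FPKM in RFP by the authors' values. Its CPM values were 1890, 2270 and 2030 against 1280, 1600 and 1690, a log2 fold change of 0.44 (SE 0.11). Sap18, a subunit of a histone deacetylase complex and of a splicing-associated complex, was at 404, 453 and 379 CPM against 284, 345 and 285 CPM, a log2 fold change of 0.44 (SE 0.11). Sap18 overlaps Ska3 on the other strand, which had at most 1830 reads beside the 7494 or more of Sap18. Tex13c3 was low throughout, at 3.81, 2.57 and 4.74 CPM against 0.832, 0.264 and 0.48 CPM, a log2 fold change of 2.80 (SE 0.74).

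The remaining higher genes were 7 processed pseudogenes, described further on, and the long intergenic RNA Gm41414. Gm41414 was at 5.94, 7.8 and 8.84 CPM in GFP High and 2.61, 2.55 and 1.73 CPM in RFP, and the GFP Low libraries lay between at 3.05, 4.26 and 4.6 CPM.

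On the lower side, 11 of the 12 genes were protein-coding. Mpp5, the PALS1 adaptor of the Crumbs polarity complex (chr12:78748907-78840714), was at 91.8, 104 and 96.7 CPM in GFP High and 128, 141 and 135 CPM in RFP, a log2 fold change of -0.47 (SE 0.11). Every GFP High library was below every RFP library, and GFP Low lay between at 122, 122 and 116 CPM. Nbn encodes nibrin, the subunit of the Mre11 complex that senses DNA double-strand breaks (chr4:15957925-15992589). Nbn was at 15, 15.8 and 14.4 CPM against 24.7, 25.2 and 29 CPM, a log2 fold change of -0.80 (SE 0.19). Its GFP High values were close together and each was below the lowest RFP value, and GFP Low held 21, 29 and 27.8 CPM.

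Orc3, a subunit of the origin recognition complex, was at 14.1, 9.76 and 15.5 CPM in GFP High and 25.6, 22.2 and 26.8 CPM in RFP, a log2 fold change of -0.93 (SE 0.23). Ctr9, a subunit of the Paf1 complex that travels with RNA polymerase, was at 71, 70.9 and 75.1 CPM against 110, 98.1 and 91.6 CPM, a log2 fold change of -0.47 (SE 0.12). In GFP Low, Orc3 was at 23.1, 24.8 and 24.7 CPM and Ctr9 between 98 and 104 CPM, values within the RFP range and above every GFP High library.

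Nr3c1, the glucocorticoid receptor, was at 2.34, 3.68 and 4.51 CPM in GFP High and 6.43, 10.3 and 11.6 CPM in RFP, a log2 fold change of -1.43 (SE 0.40). Ncoa1, a coactivator of steroid receptors, was at 31.8, 30 and 26.2 CPM against 40.7, 42.4 and 50.4 CPM, a log2 fold change of -0.60 (SE 0.16). Both genes separated the 6 libraries by group without overlap, Nr3c1 at a far lower level than Ncoa1.

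Prkaa2, a catalytic subunit of the AMP-activated kinase, was at 7.51, 6.29 and 8.21 CPM in GFP High and 16.4, 15.5 and 12.3 CPM in RFP, a log2 fold change of -1.01 (SE 0.27). Rnf145, a ubiquitin ligase of the endoplasmic reticulum, was at 10.3, 11.3 and 9.47 CPM against 16.8, 22 and 17 CPM. Strbp, a double-stranded RNA-binding protein, was at 169, 160 and 154 CPM against 197, 204 and 215 CPM, a log2 fold change of -0.35 (SE 0.10), the smallest of the 12. Strbp, with the largest deposited gene length of the 12 (18616 bases), overlaps Rabgap1 on the other strand, which had at most 1102 reads. The GFP Low libraries held Prkaa2 at 13, 12.7 and 13.2 CPM, within the RFP range. They held Rnf145 at 14.6, 14.4 and 10.6 CPM and Strbp at 158, 165 and 143 CPM, below every RFP library.

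Rps23, a protein of the small ribosomal subunit, was at 12.1, 15.6 and 9.07 CPM in GFP High and 21.3, 33.6 and 20.6 CPM in RFP, a log2 fold change of -1.04 (SE 0.28). Pramef17, of the PRAME family like Gm2042, had 3, 0 and 0 reads in GFP High and 79, 34 and 39 in RFP, so that it was at least 16.1-fold lower with GFP High set to 3 counts per library. The GFP Low libraries held Pramef17 at 1.91, 1.69 and 0.87 CPM, inside or just below the RFP values of 2.99, 1.5 and 1.44 CPM. The antisense RNA A130051J06Rik, at 11.3, 10 and 14.8 CPM against 25.7, 17.6 and 29.3 CPM, overlaps Ano6 on the other strand, which had up to 877 reads, and its counts cannot be told apart from that gene's if strand was not used in counting.

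**Figure D1:**
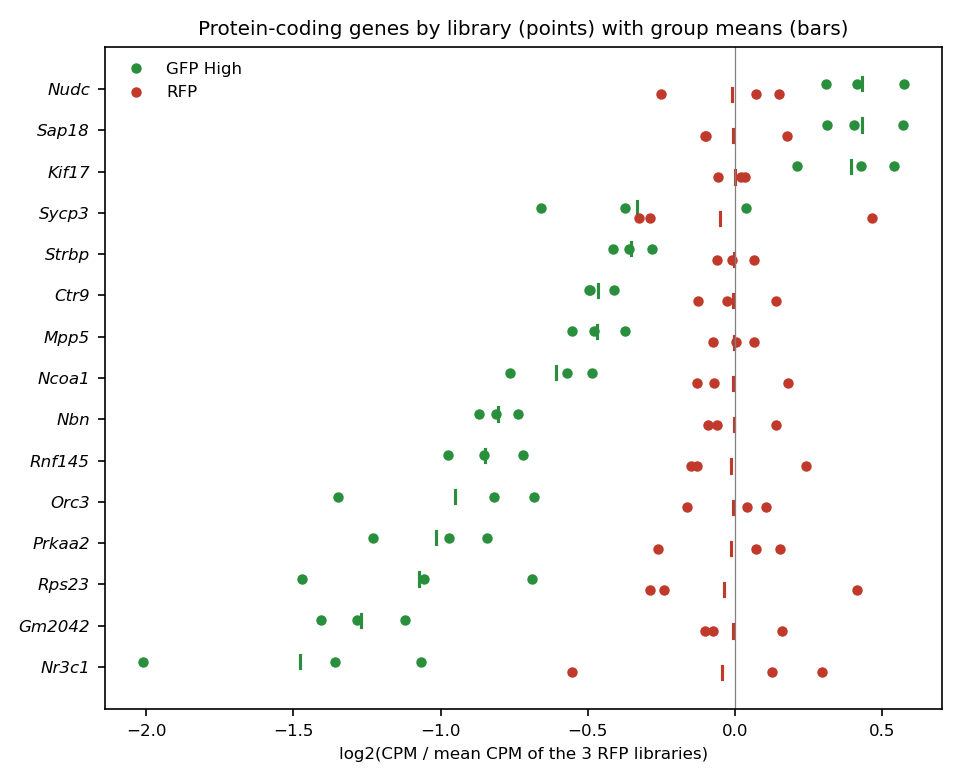
Level of the protein-coding genes named by rank, with Gm2042 and Sycp3, in each library. The horizontal axis is log2 of the CPM relative to the mean of the 3 RFP libraries, points are single libraries and short bars are group means. Pramef17 and Tex13c3 are left out because of their low counts. Kif17, Nudc and Sap18 lie right of the RFP points, Gm2042 and the genes below Sycp3 lie left of them, and the groups overlap for Sycp3.

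The authors' deposited table put 12 genes past an adjusted p of 0.05, with 8 on the higher and 4 on the lower side, and both genes called by edgeR were among them. Of these 12, 5 were annotated as pseudogenes of a processed type: Gpx4-ps2, Rpl31-ps8, Gm5854, Gm2223 and Gm12350. The authors' deposited table gave Gpx4-ps2 a log2 fold change of 1.79 with an adjusted p of 0.000121. Its lower genes besides Gm2042 were tdTomato, Pramef17 and the long intergenic RNA 9530026F06Rik. The RNA 9530026F06Rik had no read in any GFP High library and 39, 39 and 49 reads in RFP, at least 13.6-fold lower with GFP High set to 3 counts per library. In GFP Low it was at 1.29, 1.61 and 0.435 CPM.

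Grouped by annotated biotype, processed pseudogenes had the highest share of fitted values above 0 of the 3 biotypes with the most genes tested. Of 2700 processed pseudogenes in the table, 819 passed the filter, none of them called. Of these, 486 (59.3%) had a fitted value above 0, with a median log2 fold change of 0.129, against 49.3% and -0.006 over all genes tested and 48.1% and -0.014 over the 12323 protein-coding genes. At an unadjusted p under 0.05, 30 processed pseudogenes were higher (3.66%) and 4 lower (0.488%), beside 2.27% and 1.81% over all genes. The count of lower ones depended on single libraries: it was 39 beside 50 higher without GFP High 3, 26 beside 47 without GFP High 1 and 23 beside 43 without GFP High 2. Without RFP 3 the counts were 13 higher and 2 lower, without RFP 2 they were 25 and 2, and without RFP 1 they were 17 and 6. The number of all genes at that threshold, in either direction, moved as well from 606 with all 6 libraries. It was 1769, 1524 and 1028 without GFP High 3, 1 and 2, and 314, 431 and 288 without RFP 3, 2 and 1. Processed pseudogenes whose libraries did not overlap numbered 58 higher (7.08%) and 46 lower (5.62%), against 5.04% and 6.8% over all genes.

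The shares were taken by level as well. Between 5 and 10 CPM, 62 of 90 (68.9%) had a fitted value above 0, between 10 and 20 CPM 48 of 63 (76.2%), between 20 and 50 CPM 31 of 41 (75.6%) and between 50 and 100 CPM 28 of 37 (75.7%). Protein-coding genes in the same level ranges had 52%, 49.8%, 49.6% and 49.2% above 0. Below 1 CPM the processed pseudogenes were at 48.1%, and all genes of that level were at 39.1% with a median of -0.315, a range in which GFP High held more genes with no read. As a share of all counts, processed pseudogenes made up 0.997%, 1.04% and 0.931% of GFP High 1, 2 and 3 and 0.898%, 0.952% and 0.834% of RFP 1, 2 and 3. The libraries of the groups overlapped, with an SD of 0.0558 in GFP High and 0.059 in RFP. The difference of 0.0951 percentage points gave p = 0.2 in an exact permutation test, two-sided and unpaired (0.6 adjusted over 9 biotypes). The smallest p that 3 against 3 libraries allow is 0.1. Each GFP High library was above the RFP library of the same number. In both groups library 2 was highest and library 3 lowest.

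Among other biotypes, 53.1% of 769 long intergenic RNAs and 56.6% of 302 antisense RNAs had a fitted value above 0, with medians of 0.03 and 0.084. Long intergenic RNAs had 4 genes higher (0.52%) and 10 lower (1.3%) at an unadjusted p under 0.05. Of the 80 transcribed processed pseudogenes tested, 40 were above 0, with 7 higher (8.75%) and 3 lower (3.75%) at that threshold. By chromosome, the share of genes above 0 ran from 43.5% on X to 53.1% on chromosome 7.

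The named pseudogenes had values as follows. Gpx4-ps2 was at 47.6, 69.6 and 46.5 CPM in GFP High and 14, 24.4 and 9.37 CPM in RFP, a log2 fold change of 1.78 (SE 0.33). Its parent Gpx4, the peroxidase that reduces lipid hydroperoxides in membranes, was at 28.6, 25.9 and 20.3 CPM in GFP High and 36.1, 43.8 and 37.6 CPM in RFP, a log2 fold change of -0.65 (SE 0.19). Copy and parent thus lay in opposite directions, each without overlap between groups.

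Gm2223 was at 18.8, 21.5 and 13.4 CPM in GFP High and 6.62, 5.72 and 8.41 CPM in RFP, a log2 fold change of 1.37 (SE 0.29). Its parent Eif2s3x, which encodes the gamma subunit of the initiation factor that brings the initiator tRNA to the ribosome, was at 67.8, 64.9 and 66.8 CPM in GFP High and 85.9, 83.3 and 94.6 CPM in RFP. Again both were free of overlap and opposite in direction, although the 1350 bases of Gm2223 occur unchanged in Eif2s3x.

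Rpl31-ps8 was at 17.2, 21.5 and 36.9 CPM in GFP High and 8.21, 9.2 and 4.72 CPM in RFP, a log2 fold change of 1.77 (SE 0.35). Rpl31, of the large ribosomal subunit, was at 63.1, 40.7 and 30.2 CPM against 50, 73.3 and 51.9 CPM, and its groups overlapped. Gm5854 was at 13.1, 11.8 and 8.39 CPM against 2.95, 4.27 and 3.14 CPM, and its parent Rpl7a, at 2.12, 11.8 and 3.38 CPM against 8.02, 10.6 and 13.5 CPM, overlapped.

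Gm12350 was at 45.1, 16.9 and 14.3 CPM in GFP High and 10.1, 3.17 and 2.73 CPM in RFP, a log2 fold change of 2.25 (SE 0.58) that was 1.54 without GFP High 1 and 3.10 without RFP 1. GFP High 1 stood well above the other two GFP High libraries. Its parent Chchd2, of mitochondria, was lowest in that same library, at 94.3 CPM beside 209 and 158 CPM in GFP High 2 and 3 and 175, 205 and 181 CPM in RFP. Gm10250 was at 63.1, 153 and 52.7 CPM against 25.4, 37.3 and 28.9 CPM, with GFP High 2 highest and a log2 fold change of 1.56 (SE 0.36) that was 0.92 without that library, while its parent Atp5h, a subunit of the mitochondrial ATP synthase, differed by a log2 fold change of 0.01 (SE 0.12). Rpl17-ps3 varied little within a group, at 65, 64.7 and 67.2 CPM against 47.7, 48.4 and 44.1 CPM, a log2 fold change of 0.49 (SE 0.13), while its parent Rpl17, at 22.4, 52.2 and 41.9 CPM against 30.8, 73.6 and 37 CPM, overlapped.

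In GFP Low, Gpx4-ps2 was at 33.3, 8.75 and 15.6 CPM, Gm10250 at 88.5, 60.2 and 24.6 CPM and Gm2223 at 6.66, 5.37 and 8.74 CPM. Those of Gpx4-ps2 ran from below the lowest RFP value to above the highest, under all GFP High values, those of Gm10250 from below the lowest RFP value to within the GFP High range, and those of Gm2223 lay about the RFP values. The GFP Low libraries held Rpl17-ps3 at 62.4, 67.3 and 66.1 CPM, Gm5854 at 6.97, 9.37 and 10.2 CPM and Rpl31-ps8 at 9.5, 16.7 and 17 CPM. For each of these genes every GFP Low library was above every RFP library. Gm12350, at 6.25, 5.18 and 12.9 CPM in GFP Low, ran from within the RFP range to above it, under all GFP High values. The 6 processed pseudogenes of smallest p that leaned lower were weaker in rank. Gm9824, a copy of Pebp1, was at 1.65, 2.86 and 3.83 CPM in GFP High and 4.88, 5.55 and 8.08 CPM in RFP, and Gm6397, a copy of Hnrnpa3, was at 8.54, 8.09 and 9.52 CPM against 14.9, 12.7 and 11.5 CPM. The other 4, Gm18830, Gm12397, Gm27047 and Gm7895, had log2 fold changes between -2.28 and -0.40.

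Of 899 tested processed and transcribed processed pseudogenes, 716 were assigned a tested parent at 90% identity over 50% of their length, with a median identity of 98.9%. Their median log2 fold change was 0.164 and that of their 494 parents 0.015. Among the 35 that were higher at an unadjusted p under 0.05, the median was 1.14 and the 32 parents had a median of -0.054, with 15 of 32 above 0. At 5 CPM or more, 181 of 243 assigned pseudogenes were above 0 (74.5%). Of the 165 with 99% identity or more, 132 were above 0 (80%), beside 5 of 11 (45.5%, from 10 parents) with identity under 95%. The second set is small, and the sets were not matched for length or level.

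In 4 pairs, copy and parent both had an unadjusted p under 0.05, and in all 4 the copy was higher and the parent lower in GFP High. Among all 716 assigned copies, 35 were higher and 6 lower at that threshold. Of the 494 parents, 31 were past it, 17 of them higher. Whether 4 such pairs exceed what these shares give was not tested. The 4 pairs are named next. They were Gpx4-ps2 with Gpx4, Gm2223 with Eif2s3x, Sms-ps with the spermine synthase gene Sms, and Gm15920 with Ndufa12, of respiratory complex I. With one library left out, the number of opposite pairs ran from 2 to 9 and of pairs in the same direction from 0 to 5. Without RFP 2 there were 2 opposite and 5 in the same direction, and without GFP High 3 there were 8 and 5. Gpx4-ps2 with Gpx4 and Gm2223 with Eif2s3x were opposite in all 21 fits tried. Sms-ps with Sms was so in 15 of the 21 and Gm15920 with Ndufa12 in 10, and the groups overlapped for Gm15920.

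**Figure D2:**
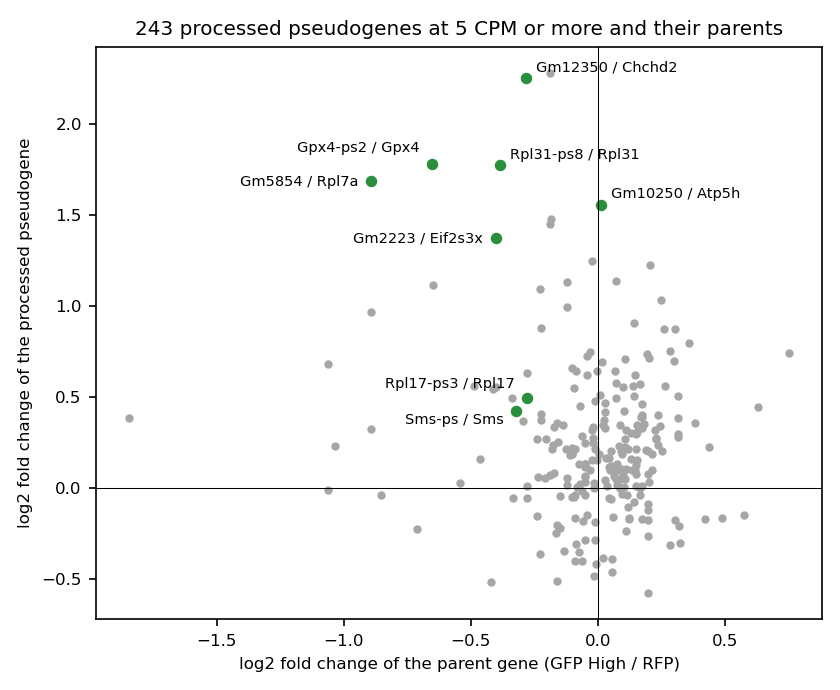
Log2 fold change of 243 processed or transcribed processed pseudogenes at a mean of 5 CPM or more (vertical axis) against that of the parent gene (horizontal axis). Each point is 1 pseudogene, parents with several copies recur, and green points are labelled pairs. More points lie above 0 (181 of 243) than below, and the labelled copies lie above 0, having been chosen for it, while their parents lie at or left of 0.

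The division of a family's reads between copies and parent was then taken as 1 value per library, the pseudogenes' share of the summed CPM. For Gpx4 the share was 62.5%, 72.9% and 69.6% in GFP High and 28%, 35.8% and 19.9% in RFP. For Eif2s3x it was 21.7%, 24.9% and 16.7% against 7.16%, 6.44% and 8.16%. For Sms it was 30.4%, 31.1% and 32.7% against 19.4%, 21.9% and 23.4%. In each of these families the 3 GFP High shares were above the 3 RFP shares. The shares of the Rpl31, Rps23, Chchd2, Atp5h and Rpl7a families were also free of overlap, with means of 37% ± 16.9 against 11.2% ± 2.88, 53.1% ± 7.18 against 32.7% ± 5.17, 17.8% ± 14.7 against 3.22% ± 2.57, 14.4% ± 8.1 against 5.54% ± 0.791 and 89.9% ± 8.26 against 74.2% ± 5.32 (SD, n = 3). The Rpl17 family, with 7 copies including Rpl17-ps3, overlapped, at 89.9%, 78.8% and 78.6% in GFP High and 85.3%, 70.9% and 77.2% in RFP. Rps23, whose own level was among the lower genes above, has 3 copies in its family.

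Copies and parent were also summed. The Eif2s3x family totalled 84.4 CPM ± 3.66 in GFP High and 94.8 CPM ± 7.29 in RFP (SD, n = 3), the Rpl31 family 69.9 ± 9.33 and 65.8 ± 14.5 CPM, and the Chchd2 family 183 ± 42.8 and 193 ± 13.9 CPM. The Sms family totalled 181 ± 10.5 and 198 ± 6.07 CPM and the Atp5h family 614 ± 77.4 and 550 ± 60 CPM. Sums were further apart in the Gpx4 family, at 79.5 ± 14.6 and 55.1 ± 11.5 CPM (log2 ratio 0.53), the Rpl7a family, at 56.3 ± 11.2 and 41.3 ± 3.94 CPM (0.44), and the Rps23 family, at 26.7 ± 9.27 and 37 ± 8.12 CPM (-0.47). Over all 494 families, the share was higher without overlap in 41 (8.3%) and lower in 26 (5.26%), and the median log2 ratio of the summed family was 0.048. The families given here were chosen for their members' ranks.

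**Figure D3:**
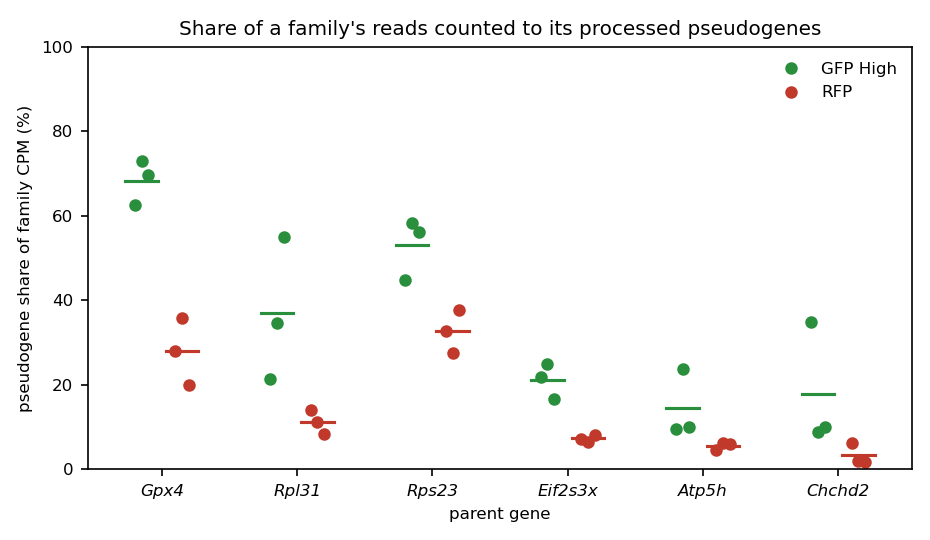
Share of a family's summed CPM that was counted to its processed pseudogenes, in percent, for 6 parent genes. Points are libraries and bars are means of 3. In each family shown the GFP High points lie above the RFP points, with the widest gap for Gpx4 (68.3% against 27.9%).

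Processed pseudogenes are short, and gene length was therefore set beside the fold changes, a comparison added after the values were seen. Length here is the gene length deposited with the counts. Among protein-coding genes at 20 CPM or more, the shortest quartile had 1016 of 1455 genes above 0 (69.8%, median 0.091). The longest quartile had 418 of 1454 (28.7%, median -0.082). At an unadjusted p under 0.05 the shortest quartile had 102 genes higher (7.01%) and 11 lower (0.756%), and the longest 11 higher (0.757%) and 46 lower (3.16%). Protein-coding genes under 1000 bases at 5 CPM or more were above 0 in 140 of 191 cases (73.3%, median 0.181), close to the 135 of 173 processed pseudogenes of that length (78%, median 0.212). Long intergenic RNAs of that length were above 0 in 52 of 77 cases (67.5%).

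As 1 value per library, the median log2(CPM + 0.5) of the shortest minus that of the longest quartile was -0.41, -0.275 and -0.532 in GFP High 1, 2 and 3 and -0.571, -0.475 and -0.734 in RFP 1, 2 and 3. The libraries overlapped, since GFP High 3 lay below RFP 2. The SD was 0.129 in GFP High and 0.131 in RFP, and the difference of 0.188 gave p = 0.2 (exact permutation test, two-sided, unpaired). Each GFP High library was above the RFP library of the same number, with library 2 highest and library 3 lowest in both groups. The GFP Low libraries were at -0.62, -0.561 and -0.483. Among the named genes, Mpp5 (8777 bases), Ctr9 (8000), Prkaa2 (7969), Ncoa1 (8576) and Strbp (18616) were long and Nudc (1425), Gpx4-ps2 (796) and eGFP (717) short, while Rps23 (1268), Pramef17 (1753), Nbn (2533) and Gm2042 (3073) were shorter genes that were lower, and Kif17 (4582) and Sap18 (5439) longer ones that were higher.

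**Figure D4:**
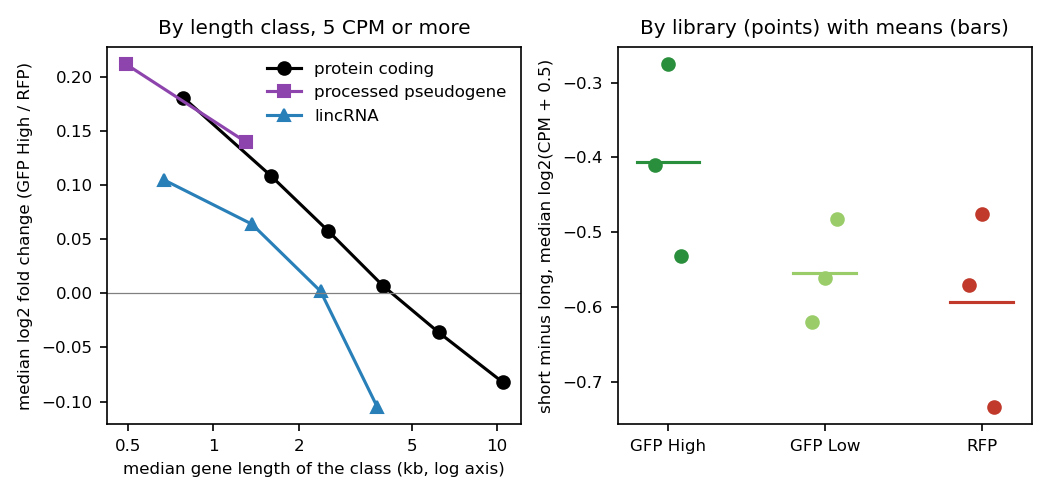
Left, median log2 fold change of genes at 5 CPM or more in classes of annotated length, plotted at the median length of each class in kilobases on a log axis, for 3 biotypes. Right, median log2(CPM + 0.5) of short minus long protein-coding genes in each library (points) with group means (bars). Medians are lower in longer classes of each biotype drawn, from 0.181 to -0.082 in protein-coding genes, while the libraries of the groups overlap.

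Lists of genes by function were then read in the same way, against 49.3% of all tested genes above 0, a median of -0.006, and 5.04% and 6.8% of genes free of overlap. No list held a called gene. Nuclear genes of oxidative phosphorylation, which encode subunits of the respiratory chain, had 61 of 77 members above 0 (median 0.165), with 9 higher (11.7%) and 1 lower (1.3%) at an unadjusted p under 0.05, beside 2.27% and 1.81% over all genes. Its members free of overlap were 7 higher (9.09%) and 2 lower (2.6%). The summed level of this list overlapped between groups, at 5695, 5936 and 4711 CPM in GFP High and 4837, 5483 and 4321 CPM in RFP. Uqcrq, of complex III, was at 117, 153 and 116 CPM in GFP High and 68.6, 104 and 91 CPM in RFP. Ndufa12, the member that was lower, was at 2.09, 0.98 and 3.02 CPM against 7.3, 5.15 and 4.5 CPM. Since many lists are made of short or of long genes, each median was also taken after a subtraction for length. From each member, the median of protein-coding genes in its length decile was subtracted, and this length-adjusted median was 0.088 here. The shortest decile ran from 204 to 1710 bases (median 0.114) and took in shorter genes too. Histones and mitochondrially encoded genes, with median lengths of 716.5 and 600 bases, are therefore adjusted only coarsely. Cytosolic ribosomal protein genes, short as well, had 42 of 81 above 0 (median 0.019, length-adjusted -0.043), and Rps23 was the member with the smallest p. Proteasome subunits had 26 of 35 above 0 (median 0.085, length-adjusted 0.048). Mitochondrially encoded genes had 14 of 22 above 0 (median 0.152, length-adjusted 0.058), while their summed level overlapped between groups, at 21300, 23520 and 21940 CPM in GFP High and 24990, 22380 and 20230 CPM in RFP.

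Messages characteristic of the oocyte were counted next. Of 26 oocyte genes, 20 were above 0 (median 0.125, length-adjusted 0.071), and 6 leaned higher (23.1%). H1foo, the linker histone of the oocyte, was at 1630, 1990 and 1290 CPM in GFP High and 1160, 1240 and 999 CPM in RFP, a log2 fold change of 0.53 (SE 0.14). Gdf9, given above, had a log2 fold change of 0.20 (SE 0.07), and Ooep of the subcortical maternal complex was at 692, 759 and 713 CPM against 602, 675 and 583 CPM. The subcortical maternal complex and maternal NLRP genes as a list had 5 of 16 above 0 (median -0.113, length-adjusted -0.111), and 6 leaned lower (37.5%), among them Nlrp9b at 493, 437 and 475 CPM against 538, 509 and 533 CPM. The 6 zona pellucida and sperm-binding genes tested were all above 0 (median 0.137, length-adjusted 0.084), and none was free of overlap. Histones had 41 of 62 above 0 (median 0.146, length-adjusted 0.037).

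The lists to which Nbn, Mpp5 and Kif17 belong were read next. Of 40 genes of double-strand break response and repair, 16 were above 0 (median -0.044, length-adjusted -0.004), 2 leaned higher (5%) and 4 lower (10%). Nhej1, of non-homologous end joining, was at 51.8, 53.3 and 48.2 CPM in GFP High and 41.5, 29.9 and 27.2 CPM in RFP, opposite in direction to Nbn. Topbp1 and Blm, of replication checkpoint and recombination, leaned lower with log2 fold changes of -0.22 and -0.28. Of 18 cell polarity genes 8 were above 0 (median -0.015, length-adjusted -0.018), and Mpp5 was the member that leaned. Of 34 kinesins 14 were above 0 (median -0.048, length-adjusted -0.021), with Kif17 and 1 other leaning higher (5.88%) and 4 leaning lower (11.8%), among them Kif4 at 298, 271 and 272 CPM against 317, 305 and 320 CPM.

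Genes of maternal mRNA decay and storage had 10 of 36 above 0 (median -0.061, length-adjusted -0.034), and 6 leaned lower (16.7%). Ythdf2, a reader of methylated adenosine that promotes message decay, was at 60, 40.9 and 52.6 CPM in GFP High and 73.4, 70.8 and 67.8 CPM in RFP, a log2 fold change of -0.47 (SE 0.16). Zar1, which stores maternal messages, was at 899, 943 and 854 CPM against 713, 802 and 830 CPM, the member that leaned higher.

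Arrest and checkpoint genes were near the centre. Genes of metaphase II arrest and maturation promoting factor had 10 of 20 above 0 (median 0.011, length-adjusted -0.004), and 4 leaned higher (20%), among them Ccnb2, a cyclin B, at 125, 135 and 134 CPM against 108, 112 and 113 CPM, and the kinase gene Mos at 85.8, 91.3 and 76.6 CPM against 70.4, 73.8 and 65.7 CPM. In the spindle assembly checkpoint list 9 of 15 were above 0 (median 0.017, length-adjusted 0.033), and Birc5, the survivin subunit of the chromosomal passenger complex, was at 635, 859 and 712 CPM against 607, 610 and 560 CPM. Cohesin, shugoshin and separase genes had 9 of 18 above 0 and follicle activation genes of the Kit, PI3K and mTOR pathways 11 of 22, with medians of -0.001 and -0.012 (length-adjusted 0.049 and 0.033).

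Of 14 genes for NF-kB subunits and inhibitors, 9 were above 0 (median 0.062, length-adjusted 0.075). Nfkbia, the inhibitor IkB alpha, was at 29.8, 33 and 28.8 CPM in GFP High and 19.5, 21.1 and 12.9 CPM in RFP, a log2 fold change of 0.78 (SE 0.22), and Nfkb1 leaned the other way at 4.73, 3.02 and 2.48 CPM against 5.9, 5.11 and 6.05 CPM. Antioxidant enzymes had 11 of 23 above 0 (median -0.038, length-adjusted -0.03), with Gpx4 the member of smallest p. Genes of p53 targets and apoptosis had 10 of 24 above 0 (median -0.059, length-adjusted -0.029), and DNA methylation genes 5 of 13 (median -0.023, length-adjusted 0.024). Heat shock genes had 8 of 16 above 0 (median 0.012, length-adjusted -0.026), and meiotic prophase genes 11 of 20 (median 0.027, length-adjusted -0.014). Oocyte transcription factors had 9 of 14 above 0 (median 0.124, length-adjusted 0.064), and oocyte-secreted factors 5 of 7 (median 0.198, length-adjusted 0.086).

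**Figure D5:**
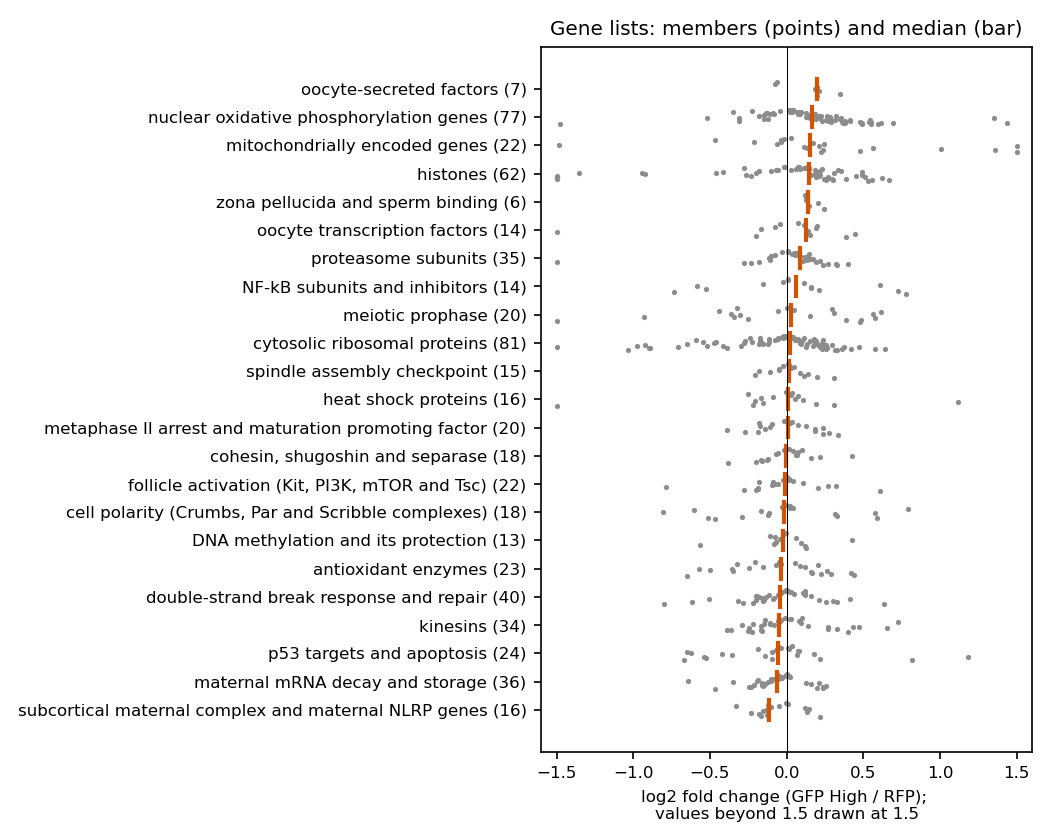
Log2 fold change of the tested members of 23 function lists (grey points) with the median of each list (bar); the number tested is in brackets and points beyond 1.5 are drawn at 1.5. The medians, with no adjustment for length, lie between -0.113, for the subcortical maternal complex and NLRP genes, and 0.198, for the oocyte-secreted factors.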

How the data were processed

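Poly-A RNA of egg pools was sequenced as paired ends after random-hexamer reverse transcription of fragmented RNA, per the labels' protocols. The submitters' processing notes name fastp, HISAT2 2.0.5, featureCounts 1.5.0-p3, DESeq2 1.20.0 and the build mm10. The deposited table for GFP High against RFP holds raw read counts per gene and library, and these counts entered all tests. The authors' FPKM values were used only to compare levels between genes per length. The authors' log2 fold change and adjusted p-value are quoted only with the authors' deposited table named. Whether counting used strand is not given in the sources used here.

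Genes were filtered by filterByExpr, scaled by TMM and tested in edgeR 4.0.16 (R 4.3.3) with the quasi-likelihood test and no covariate; p-values were adjusted by Benjamini-Hochberg over 14829 genes. CPM values are TMM-scaled, and those of the 3 GFP Low libraries were scaled jointly with the 6 others. Replicates differed by more than counting noise (chi-square per degree of freedom 19.3 to 57.6). Each library's deviations from the mean log CPM of its own group were correlated across genes between GFP High and RFP. For same-numbered libraries r was -0.0179, -0.0651 and 0.00932, and the libraries were not paired in the tests. Single values could still follow the number. Hmgn1 was at 203, 233 and 695 CPM in GFP High 1, 2 and 3 and 170, 196 and 684 CPM in RFP 1, 2 and 3. The processed pseudogene share and the short-minus-long value had the same order of libraries in both groups, while the share of long intergenic RNAs did not. A shared origin of same-numbered pools was not tested. At 1 CPM a gene rests on 22.2 to 27.2 reads, and limits from counts cover counting error only. Pseudogene parents were found with BLAST 2.17.0 on GENCODE M21 transcripts, and 26717 of 26775 identifiers were in that release, 25957 at the same coordinates. The tests were tried on simulated counts.

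Named genes were the called ones, the 12 of smallest p in each direction among genes at 1 CPM or more without overlap, 6 processed pseudogenes each way by the same rule, the reporters, Gm2042, Sycp3, Nbn, Mpp5 and Kif17, those past 0.05 in the authors' table, and up to 4 members of each list by p. The genes of interest and lists were chosen with earlier results of these data known. Summed levels of the other marker lists were 0.183 to 6.85 CPM for theca and stroma, 0 to 1.03 for red blood cells, 0.0408 to 3.14 for leukocytes, 346 to 390 for oviduct epithelium and 60.8 to 83.9 for endothelium. Most of the oviduct sum came from Cdh1 (7892 to 10478 reads per library), while Ovgp1 had 0 to 2 reads and Krt7 0 to 7. Most of the endothelium sum came from Pecam1, Tek and Kdr, while Cdh5 had 0 to 17 reads and Emcn 0 to 4. Alternatives were DESeq2 1.42.0, limma-voom (limma 3.58.1), edgeR with bias-adjusted deviances, DESeq2 size factors, other filters, all 9 libraries, a replicate block and leaving out each library.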

Additional observations from a re-analysis of the deposited data

How the results depend on the processing

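The count of 2 called genes, eGFP and Gm2042, was the same with bias-adjusted deviances, DESeq2 size factors, a mean of at least 50 counts and all 9 libraries. It was 12 with DESeq2, 1 (Gm2042) with limma-voom, 16 without a filter on low counts and 4 with the replicate block, which added Gm12350 and Gpx4-ps2. Leaving out 1 library gave 0 to 2 calls: edgeR called 0 when GFP High 1 was left out (1524 genes at an unadjusted p under 0.05), and 0 without GFP High 3 (1769 genes), without RFP 2 (431) and without RFP 3 (314), and with bias-adjusted deviances (added after seeing the data) it called both genes in each case. The fold changes of eGFP and Gm2042 kept their direction throughout. The share of counts in processed pseudogenes differed by 0.0648 to 0.125 percentage points with a library left out, and the short-minus-long value by 0.117 to 0.251. Sycp3 turned to 0.01 with bias-adjusted deviances without RFP 1. The sources used here do not say whether same-numbered libraries share more than a number, so calls gained under the block are not read further. With 3 libraries a group, an exact test cannot go below p = 0.1, and genes under 1 CPM rest on fewer than 27.2 reads.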
